A study of Mus musculus with 4 samples.

Results

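The genes described here are 36 skeletal muscle genes for the sarcomere, excitation-contraction coupling, the neuromuscular acetylcholine receptor and muscle metabolism, named as a list and matched by symbol to the 25819 rows of the deposited expression table. All 36 were found, each as a single row. RNA-Seq was made from whole urogenital sinus (UGS), the embryonic tissue that gives rise to the prostate, bladder neck and urethra, of male mouse embryos at E16.5 and E18.5. At each stage the embryos were wild type (WT) or *Tbx18*Gfp/Gfp, homozygous for a GFP knock-in that is a null allele of *Tbx18*, a T-box transcription factor gene of the urogenital mesenchyme. The mutants and their WT littermates came from matings of *Tbx18*Gfp/+ parents on a B6C3-F1 hybrid background. For each of the 4 libraries the RNA of 3 embryos was pooled. Since each genotype had 1 library at each stage, there was no replicate check, no test and no error between replicates, and every difference below is a difference between pools.

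Skeletal muscle fibers contract when the nerve releases acetylcholine onto its receptor, the L-type calcium channel senses the depolarized membrane and opens the ryanodine receptor, and calcium released from the sarcoplasmic reticulum binds troponin C on the thin filament so that myosin heads can pull on actin. Many of these proteins exist as fast, slow and fetal isoforms from separate genes, and fibers of the embryo express fetal myosins and the fetal gamma subunit of the receptor. In the pelvic urethra of the male such fibers form the striated urethral sphincter, whereas the stroma around the prostatic ducts forms smooth muscle.

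The label of the list was checked against markers. The 3 most abundant of the listed myogenic regulator genes, *Myog*, *Eya1* and *Mef2c*, were at 36.4, 19.4 and 16.3 FPKM in WT UGS at E16.5. FPKM are reads scaled to transcript length and to mapped reads. Of the cardiac markers *Actc1*, *Tnnt2* and *Tbx5* were at 250.01, 61.0 and 3.39 FPKM in that library. *Actc1* and *Tnnt2* are also expressed outside the heart. The next most abundant, *Tnni3*, *Ryr2* and *Myh6*, had 1.90, 1.76 and 1.18 FPKM in E16.5 WT. In E18.5 WT they had 2.77, 1.29 and 2.11 FPKM. The remaining cardiac markers were below 1 FPKM in both WT libraries. Of these *Myl7* was at 0.749 and 0.525 FPKM in E16.5 WT and mutant, and at 0.183 and 2.18 FPKM in E18.5 WT and mutant. The others were below 1 FPKM in both mutant libraries too. Among them *Nkx2-5* was listed at 0 in both, against 0.0137 FPKM in the E16.5 mutant and 0.0146 FPKM in the E18.5 mutant. Whether the pools held cardiac cells was not tested. The libraries were estimated at 59200000, 50300000, 26500000 and 48600000 mapped reads in the order E16.5 WT, E16.5 mutant, E18.5 WT and E18.5 mutant, from genes at the FPKM of a single read. *Tbx18* itself was at 3.47, 2.50, 3.16 and 2.93 FPKM, and these values do not separate transcript of the targeted allele from that of an intact one. The E18.5 WT library, the shallowest, also stood apart in the GC content of its transcripts. For the genes whose E18.5 fold is described below, the trend-subtracted value is given where it turns the direction or crosses 2-fold, that is the log2 ratio after the trend of all genes on length and GC content was taken off, and the ratio plot shows it for every gene.

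The promoters of the 4 genes with the highest FPKM in WT UGS at E16.5 are shown because they carry the short sequences through which muscle genes are commonly controlled. They are the 150 bases before the RefSeq transcription start, 5′ to 3′ on the strand of the gene (GRCm38.p6). Capitals mark matches on either strand to the E-box CANNTG, the TATA box TATAAA, the CArG box and the MEF2 site. In *Myl1* the capitals match the TATA box on the opposite strand, 95 to 90 bases before the start.
Mylpf, chr7:127211458-127211607, + strand: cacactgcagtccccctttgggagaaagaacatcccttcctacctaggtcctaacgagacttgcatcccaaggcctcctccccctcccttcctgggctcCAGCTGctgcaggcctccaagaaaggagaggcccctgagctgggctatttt
Acta1, chr8:123894776-123894925, - strand: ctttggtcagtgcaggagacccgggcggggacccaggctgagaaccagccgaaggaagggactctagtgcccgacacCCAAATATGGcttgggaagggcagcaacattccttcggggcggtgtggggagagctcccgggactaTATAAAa
Myl1, chr1:66945057-66945206, - strand: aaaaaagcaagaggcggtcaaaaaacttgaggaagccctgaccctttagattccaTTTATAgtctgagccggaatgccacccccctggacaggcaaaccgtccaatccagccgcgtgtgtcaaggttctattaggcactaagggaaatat
Myh3, chr11:67078150-67078299, + strand: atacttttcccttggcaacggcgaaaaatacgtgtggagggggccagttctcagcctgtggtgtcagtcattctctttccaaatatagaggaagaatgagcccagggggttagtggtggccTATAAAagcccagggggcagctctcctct

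Of the 36 genes, 26 had promoters in the RefSeq set, 27 promoters in all, and 250 bases before each start were searched on both strands, with overlapping matches of different motifs kept. The E-box, the site of the MyoD family, was in 85.2% of these promoters and in 66.2% of all 32851. The MEF2 site was in 5 of the 27, against 2.92% of all, in *Xirp2*, *Ttn*, *Casq2*, *Myh1* and *Myh8*. A CArG box, which binds serum response factor, was found in *Acta1* alone, 73 to 64 bases before the start, against 1.47% of all promoters. The TATA box was in 25.9% against 12.4%, and the GC-rich SP1 box GGGCGG in 29.6% against 32.7%. These matches describe the letters in the windows and not binding.

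WT UGS at E16.5 was the highest of the 4 libraries in 29 of the 36 genes, against 25.4% of the rows above 0 in all 4. A mutant library was the lowest in 31 of 36, 14 at E16.5 and 17 at E18.5, against 29.6% of those rows. The FPKM of the 36 genes added up to 1398 in WT and 631 in mutant UGS at E16.5, and to 825 and 1116 at E18.5. The larger E18.5 mutant sum came from few genes, since the median gene was at 6.98 FPKM in WT and 4.65 in mutant UGS at that stage. *Mylpf* led the list in E16.5 WT and *Acta1* in the E18.5 mutant, and *Xirp2* was the lowest in each library. In tissue of mixed cells, fewer muscle fibers and less RNA per fiber cannot be told apart.

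**Figure D1:**
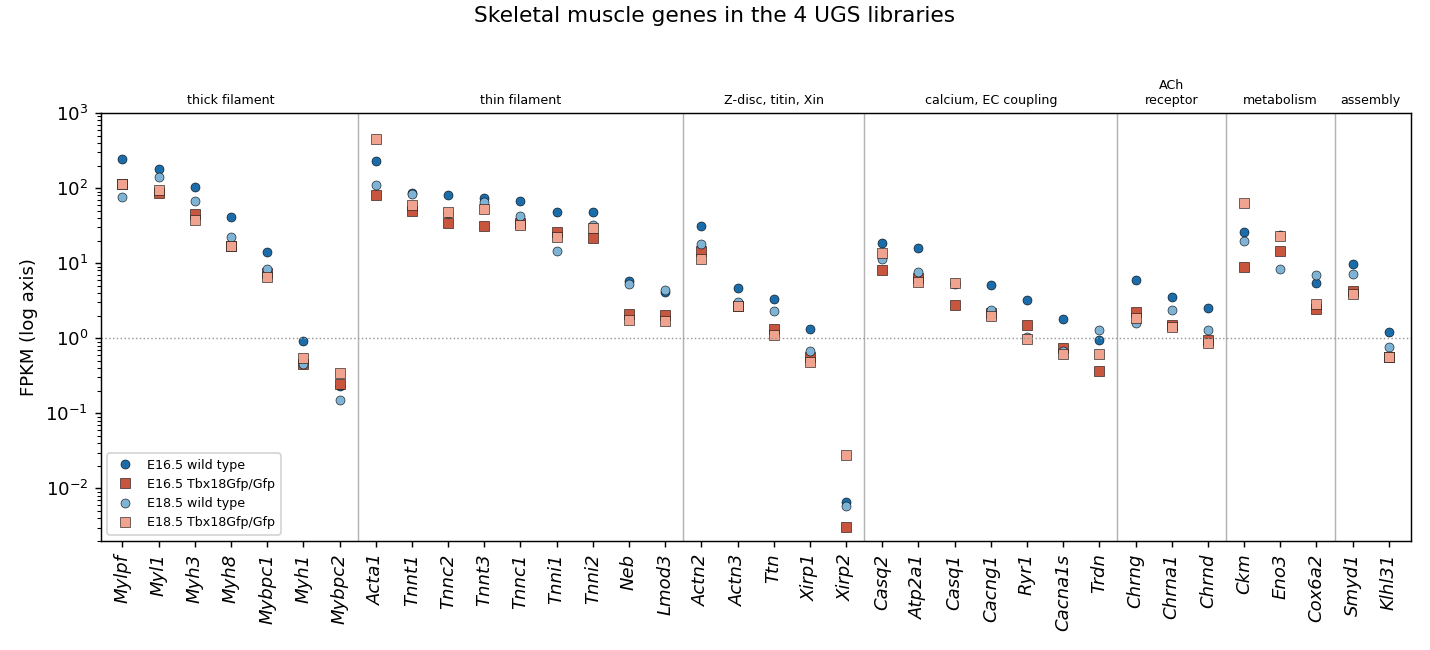
FPKM of the 36 genes (log axis) in each library, grouped by role and ordered within a role by the E16.5 WT level; circles are WT, squares *Tbx18*Gfp/Gfp, dark E16.5 and light E18.5, and the dotted line is 1 FPKM. The dark circle is the highest point in 29 genes, and the light square of *Acta1*, at 455 FPKM, stands above every other point.

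At E16.5, 32 of the 36 genes had at least 1 FPKM in either library, 4 of them through the WT library alone. Of these, 25 were at least 2-fold lower in mutant UGS, where 1.17% of all 14761 genes were, and none was at least 2-fold higher, where 0.481% were. Over the whole list 28 were at least 2-fold lower and 35 were lower by any amount, against 45.7% of all rows above 0 in both libraries. The exception was *Mybpc2*, at 0.229 and 0.247 FPKM. The members lay close together, with log2 ratios from -1.56 to -0.70 among the 32 genes and 27 of all 36 within 0.25 of their median, and the median of all genes was 0.01.

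At E18.5, 30 genes passed the same filter, and 5 of them were at least 2-fold lower in mutant UGS, while 3 were higher by as much, where 2.89% and 15.1% of all genes were. The number lower by any amount was 24 of 36, against 33.9% of all rows. The median log2 ratio of the 30 genes was -0.36 beside 0.31 for all genes, and the spread of the ratios across the 36 genes was wider than at E16.5 (SD across genes 0.91 against 0.29). The same 24 genes were lower at both stages, where 17.2% of all rows were, and *Neb*, *Lmod3*, *Ttn*, *Trdn* and *Cox6a2* were at least 2-fold lower at both, where 0.478% were. These counts are over all 36 genes without the filter, which *Trdn* did not pass at E16.5, and with the trend subtracted *Ttn* and *Trdn* were less than 2-fold lower at E18.5. Another 11 of the 36 genes were lower in the mutant at E16.5 and higher at E18.5, a share near the 28.8% of all rows. The stages share no library.

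**Figure D2:**
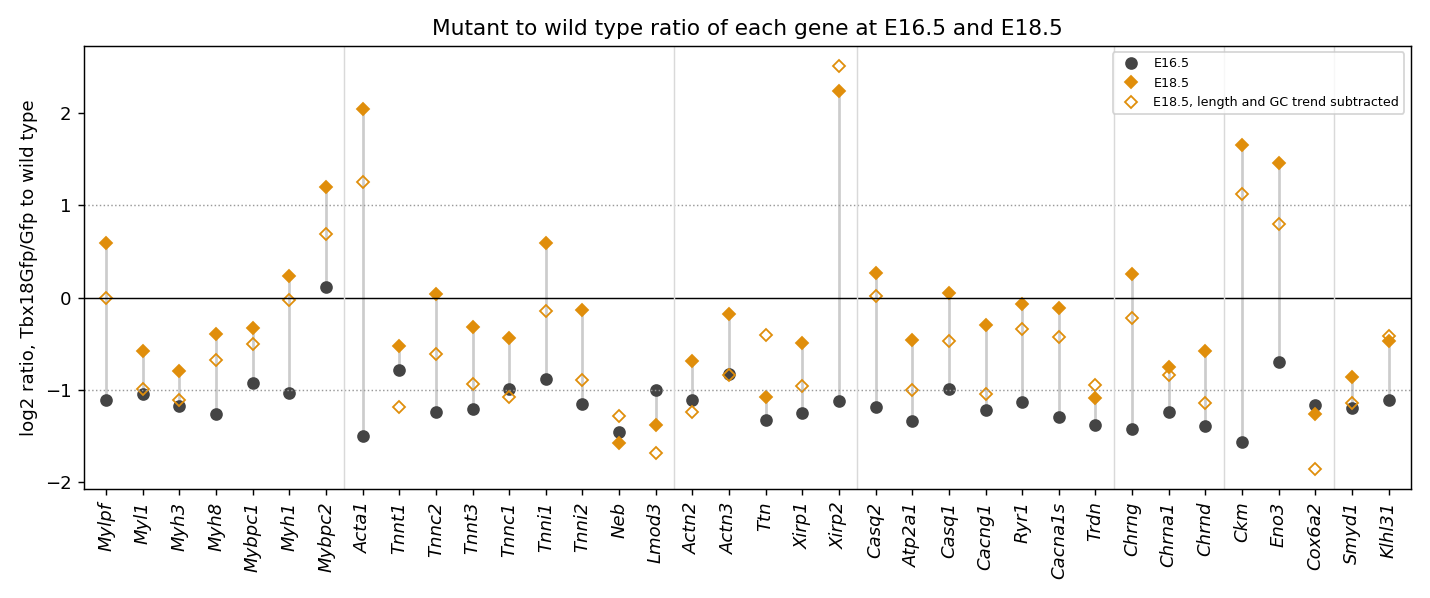
The log2 ratio of *Tbx18*Gfp/Gfp to WT FPKM for each of the 36 genes at E16.5 (circles) and E18.5 (filled diamonds), with the E18.5 ratio after subtraction of the length and GC trend of all genes (open diamonds); dotted lines mark 2-fold. At E16.5 27 of the 36 points lie within 0.25 of the median, with *Mybpc2* alone above 0, and the E18.5 points run from -1.58 for *Neb* to 2.24 for *Xirp2*.

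In the values that follow, the 4 FPKM of a gene are given in the order E16.5 WT, E16.5 mutant, E18.5 WT, E18.5 mutant. Among the thick filament genes, *Myh3*, the embryonic myosin heavy chain, was at 102, 45.1, 66.4 and 38.2 FPKM. The perinatal heavy chain gene *Myh8* was at 41.1, 17.1, 22.3 and 16.9 FPKM. Both were lower in the mutant at each stage, by 2.26-fold and 2.40-fold at E16.5 and by 1.74-fold and 1.32-fold at E18.5, where the trend-subtracted log2 ratios were -1.11 and -0.68. The regulatory light chain gene *Mylpf* was at 246, 114, 76.6 and 115 FPKM, so that the E18.5 WT library was its lowest, with a trend-subtracted ratio at E18.5 of 0.00. The essential light chain gene *Myl1* was at 179, 87.2, 142 and 95.2 FPKM, with both WT libraries above both mutant libraries. Among the myosin-binding protein C genes, slow *Mybpc1* had 13.9, 7.35, 8.35 and 6.63 FPKM, and fast *Mybpc2* stayed between 0.151 and 0.347 FPKM. The adult fast heavy chain *Myh1* was likewise low, at 0.913, 0.447, 0.460 and 0.541 FPKM. The fetal heavy chains therefore made up most of the listed myosin heavy chain FPKM in each library.

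The thin filament genes held the largest contrast between the stages. *Acta1*, skeletal alpha-actin, was at 231, 81.8, 110.5 and 455 FPKM, from about 17606, 5390, 3815 and 28553 reads. It was 2.82-fold lower in mutant UGS at E16.5 and 4.12-fold higher at E18.5, and its E18.5 mutant value was the highest of any member in any library. The trend-subtracted log2 ratio at E18.5 was 1.25, beside 2.04 as deposited. *Neb*, the giant protein that spans the thin filament, was at 5.78, 2.11, 5.25 and 1.76 FPKM. *Lmod3*, which nucleates actin at the pointed end, was at 4.15, 2.07, 4.41 and 1.70 FPKM. For both genes the WT libraries lay close together and above both mutant libraries, with 2.98-fold and 2.59-fold lower FPKM in the mutant at E18.5.

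The 6 troponin genes, which set the calcium response of the thin filament, were all lower in the E16.5 mutant. *Tnnt1* and *Tnnt3*, the slow and fast troponin T genes, were at 85.5, 49.8, 84.4 and 58.7 FPKM and at 72.7, 31.5, 64.9 and 52.2 FPKM. The troponin I genes *Tnni1* (slow) and *Tnni2* (fast) were at 48.6, 26.4, 14.6 and 22.0 FPKM and at 47.9, 21.6, 32.5 and 29.6 FPKM. In *Tnni1* the E18.5 WT library was the lowest of the 4, 3.33-fold below E16.5 WT, and the E18.5 mutant was 1.51-fold above it. With the trend subtracted the difference between the WT stages was under 2-fold (log2 ratio -0.96) and the E18.5 mutant was below WT (-0.15). *Tnnc1*, slow troponin C, was at 67.2, 33.8, 43.1 and 31.8 FPKM. Its fast partner *Tnnc2* was at 82.2, 34.7, 46.8 and 48.1 FPKM, with 55.0% of its 50-base windows shared with an annotated transcript of the neighboring gene *Ube2c*.

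At the Z-disc, *Actn2*, the alpha-actinin of all fibers, was at 31.5, 14.6, 18.1 and 11.3 FPKM, and fast-fiber *Actn3* was at 4.70, 2.66, 3.02 and 2.66 FPKM. *Ttn*, the molecular spring from Z-disc to M-line, was at 3.30, 1.32, 2.29 and 1.09 FPKM and, through its great length, rested on about 20826, 7067, 6489 and 5640 reads. It was 2.50-fold lower in the mutant at E16.5 and 2.11-fold lower at E18.5. After the length and GC trend of all genes was subtracted its E18.5 log2 ratio was -0.40, so the size of that difference depends on how a gene of this length is compared. *Xirp1*, an actin-binding Xin repeat gene, was at 1.34, 0.568, 0.685 and 0.488 FPKM. *Xirp2* was below 0.03 FPKM throughout, with about 5, 2, 2 and 16 reads, and its ratios are too thin to read.

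The calcium handling genes lay together at E16.5, with 5 of the 6 above the filter at least 2-fold lower in the mutant and a median log2 ratio of -1.20. *Ryr1*, the calcium release channel, was at 3.27, 1.49, 1.03 and 0.983 FPKM. *Cacna1s*, the voltage sensor that opens it, was at 1.82, 0.744, 0.668 and 0.619 FPKM, and its channel subunit *Cacng1* was at 5.11, 2.196, 2.40 and 1.95 FPKM. In these 3 genes E16.5 WT stood alone at the top as deposited. Their trend-subtracted log2 ratios at E18.5 were -0.34, -0.43 and -1.05, so that *Cacng1* was then at least 2-fold lower in the mutant. *Atp2a1*, the pump that returns calcium to the sarcoplasmic reticulum, also had E16.5 WT alone at the top, with 16.1, 6.37, 7.74 and 5.61 FPKM. The calcium-binding calsequestrins of the store did not follow *Atp2a1* as deposited, with *Casq1* at 5.52, 2.79, 5.23 and 5.39 FPKM and *Casq2* at 18.4, 8.09, 11.4 and 13.7 FPKM, so that E16.5 mutant stood alone as the lowest. With the trend subtracted their E18.5 log2 ratios were -0.47 and 0.02. *Trdn*, which anchors calsequestrin to the release channel, was at 0.942, 0.363, 1.30 and 0.617 FPKM, 2.59-fold lower in the mutant at E16.5, where both libraries were under 1 FPKM, and 2.12-fold lower at E18.5, where the trend-subtracted log2 ratio of -0.94 was under 2-fold.

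All 3 acetylcholine receptor subunits were at least 2-fold lower in the E16.5 mutant. *Chrna1*, the ligand-binding alpha subunit, was at 3.54, 1.502, 2.38 and 1.41 FPKM. *Chrnd*, the delta subunit, was at 2.52, 0.959, 1.29 and 0.863 FPKM. The fetal gamma subunit *Chrng* was at 5.93, 2.21, 1.57 and 1.88 FPKM, 2.68-fold lower in the mutant at E16.5. At E18.5 it was 1.19-fold higher as deposited and lower with the trend subtracted (log2 ratio -0.22). *Chrng* was 3.77-fold lower in E18.5 than in E16.5 WT, the largest difference between the WT libraries among the 36 genes, while the mutant libraries differed by a log2 ratio of -0.23. *Chrnd* and *Chrng* lie 5.74 kb apart on chromosome 1 in the deposited coordinates, and *Chrng* held 70.2%, 69.7%, 55.0% and 68.5% of their joint FPKM, with E18.5 WT apart from the rest.

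The 3 metabolic genes differed from each other at E18.5. *Ckm*, muscle creatine kinase, was at 26.2, 8.86, 19.9 and 62.6 FPKM, 2.96-fold lower in the mutant at E16.5 and 3.14-fold higher at E18.5, with a trend-subtracted log2 ratio of 1.12 at the later stage. *Eno3*, muscle enolase, was at 23.7, 14.6, 8.46 and 23.2 FPKM and was 2.75-fold higher at E18.5, which was under 2-fold with the trend subtracted (log2 ratio 0.79). *Cox6a2*, a striated muscle subunit of cytochrome c oxidase, was at 5.41, 2.42, 6.89 and 2.87 FPKM and was lower in the mutant at both stages. A gene model inside the *Ckm* locus, *LOC100503495*, had 3.41, 1.55, 1.25 and 9.27 FPKM, and the deposited values do not say how reads were divided between them. The assembly factors *Smyd1*, a methyltransferase needed for myofibril assembly, and *Klhl31*, a Kelch-like gene of muscle, were at 9.78, 4.27, 7.08 and 3.91 FPKM and at 1.21, 0.561, 0.769 and 0.555 FPKM. In both, each mutant library was below the WT library of its stage.

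The E18.5 comparison depended on GC content. Across the 36 genes the log2 ratio at E18.5 had a Spearman rho of 0.30 with the GC content of the transcript, and across 13830 genes rho was 0.45; at E16.5 the values were 0.04 and 0.02. Between the WT libraries of the stages rho was -0.51 in the 36 genes and -0.51 in 13884 genes. These are descriptions across genes that share their libraries. With the length and GC trend of all genes subtracted, the median E18.5 ratio of the 30 genes was -0.86, 26 were lower by any amount where 48.6% of all genes were, and 11 were at least 2-fold lower where 5.15% were. The 11 were *Cox6a2*, *Lmod3*, *Neb*, *Actn2*, *Tnnt1*, *Smyd1*, *Chrnd*, *Myh3*, *Tnnc1*, *Cacng1* and *Atp2a1*. The 2 that remained at least 2-fold higher, where 3.56% of all genes were, were *Acta1* (log2 ratio 1.25) and *Ckm* (1.12), whereas *Eno3* was at 0.79, *Mylpf* at 0.00 and *Tnni1* at -0.15. What set the E18.5 WT library apart was not tested.

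**Figure D3:**
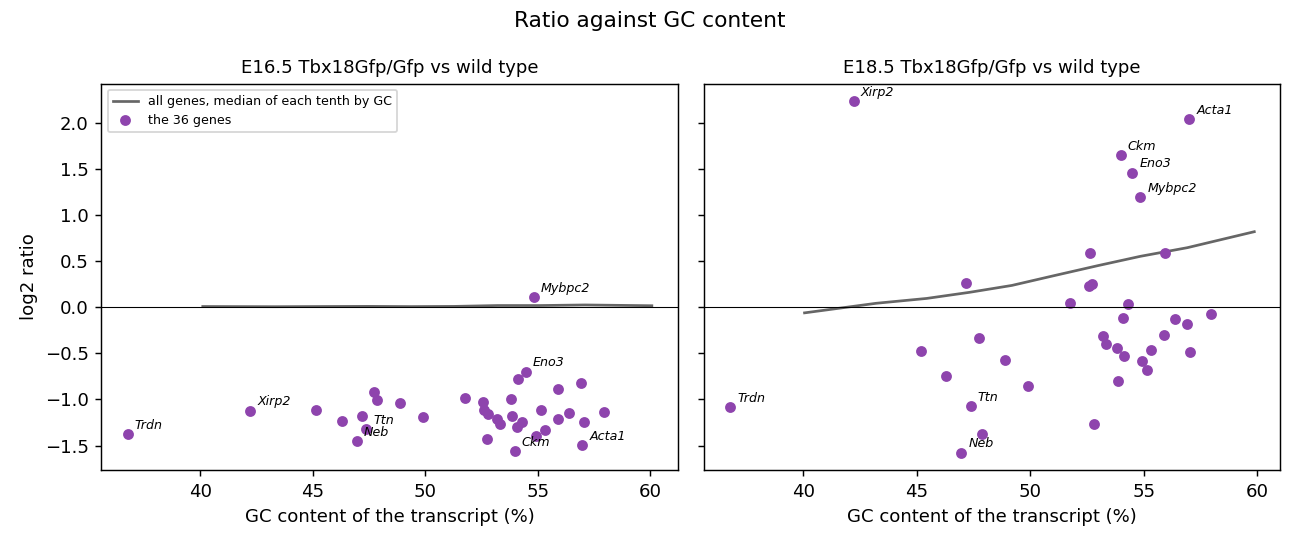
The log2 ratio of *Tbx18*Gfp/Gfp to WT FPKM of the 36 genes (points) against the GC content of the transcript in percent at E16.5 (left) and E18.5 (right), with the median of all genes in each of 10 bins by GC content (line). At E16.5 the line is flat near 0 and 35 of the points lie below it, and at E18.5 the line climbs with GC content and 26 of the 30 genes above the filter lie below the trend that was subtracted.

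Between the stages, 9 of the 33 WT genes above the filter were at least 2-fold lower at E18.5 than at E16.5, where 16.8% of all genes were, and none was at least 2-fold higher, where 2.70% were. By any amount 33 of 36 were lower, against 68.1% of all rows. The median log2 ratio of the 33 genes was -0.66 beside -0.35 for all genes, and -0.25 after subtraction of the trend, when 4 were at least 2-fold lower where 3.28% of all genes were. The genes with the largest differences were *Chrng*, *Tnni1*, *Mylpf* and *Ryr1*, with log2 ratios of -1.91, -1.74, -1.68 and -1.67. With the trend subtracted the order was *Chrng*, *Ryr1*, *Mylpf* and *Cacna1s*, at -1.40, -1.17, -1.13 and -1.02.

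In mutant UGS none of the 28 genes above the filter was at least 2-fold lower at E18.5 than at E16.5, where 0.571% of all genes were, and *Acta1* and *Ckm* were at least 2-fold higher, where 1.35% were. They were 5.56-fold and 7.06-fold higher. By any amount 19 of 36 were lower, against 61.6% of all rows, and 27 of 36 lay within 1.5-fold, a share below the 86.0% of all rows. The 10 fast isoforms were higher at E18.5 in 9 cases, where 38.4% of all rows were, with *Atp2a1* as the exception at a log2 ratio of -0.18. Above the filter 7 of 8 were higher, since *Myh1* and *Mybpc2* were below 1 FPKM in both mutant libraries. The 9 ratios ran from 0.00 for *Actn3* and 0.02 for *Mylpf*, which are no difference, to 0.73 for *Tnnt3* and 0.95 for *Casq1*. The fetal isoforms *Myh3*, *Myh8* and *Chrng* were at -0.24, -0.02 and -0.23, beside a median of -0.06 for all genes, and *Myh8* was above 0 with the trend subtracted. The stage comparisons share their libraries with the genotype comparisons.

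Smooth muscle markers went in the direction of *Acta1* and *Ckm* in the genotype comparisons and between the mutant libraries. Between the WT libraries as deposited the markers did not. All 9 were lower in the mutant at E16.5, with a median log2 ratio of -0.94, where 45.7% of all rows were lower. All 9 were higher at E18.5, with a median of 0.83, where 33.9% of all rows were lower and the median of all genes was 0.31. When the trend was subtracted 8 of 9 were higher at E18.5, with a median of 0.59, where 48.6% of all genes were lower. Their summed level was 1153, 623, 1412 and 3659 FPKM, and none was at 0. *Acta2*, *Actg2* and *Tagln* were 597, 381, 698 and 1526 FPKM, 199.6, 51.6, 237 and 1064 FPKM, and 107, 55.6, 93.4 and 401 FPKM. Between the mutant libraries 8 of the 9 were at least 2-fold higher at E18.5, where 1.35% of all genes were, with a median log2 ratio of 2.25 beside -0.05 for the 28 skeletal muscle genes. Between the WT libraries 6 of the 9 were higher at E18.5, with a median of 0.25, where 68.1% of all rows were lower. *Acta1* and *Ckm* were lower there, with log2 ratios of -1.06 and -0.40. With the trend subtracted all 9 markers were higher between the WT stages, and *Acta1* and *Ckm* were at -0.22 and 0.18. The striated actin and troponin genes *Actc1* and *Tnnt2* were at 250.01, 122, 113 and 341 FPKM and at 61.0, 24.6, 91.2 and 143 FPKM, also with the E18.5 mutant as the highest library. The part of smooth muscle in the *Acta1* and *Ckm* levels was not tested.

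**Figure D4:**
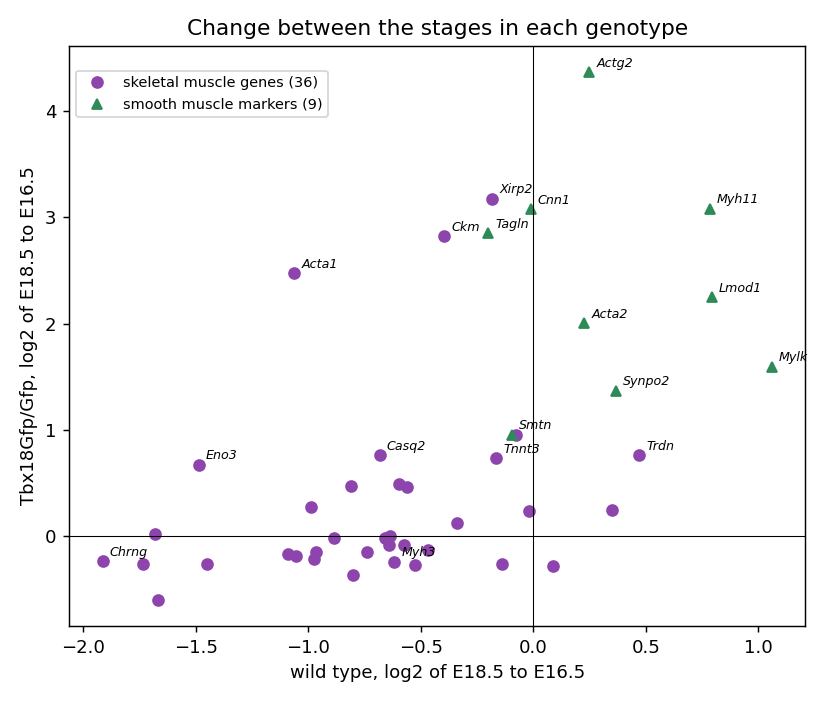
The log2 ratio of E18.5 to E16.5 FPKM in *Tbx18*Gfp/Gfp UGS (vertical) against that in WT UGS (horizontal) for the 36 skeletal muscle genes (circles) and 9 smooth muscle markers (triangles). Most circles lie left of 0 and close to 0 on the vertical axis, and *Acta1*, *Ckm* and the thinly read *Xirp2* lie at the height of the smooth muscle markers.

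Fast and slow isoforms were compared as groups and within pairs, and only within pairs does the scaling of the libraries cancel. At E16.5 the median log2 ratio of mutant to WT was -1.13 for the 8 fast isoforms above the filter and -0.92 for the 5 slow ones. Of the slow ones only *Casq2* was at least 2-fold lower as deposited. *Tnnc1* was at -0.99, and at -1.03 with the trend subtracted. In troponin I the slow gene *Tnni1* held 50.4% of the FPKM of the pair in E16.5 WT, 55.0% in E16.5 mutant, 31.0% in E18.5 WT and 42.7% in E18.5 mutant. Slow *Tnnt1* held 54.1%, 61.3%, 56.5% and 52.9% of the troponin T pair. Slow *Tnnc1* held 45.0%, 49.3%, 47.9% and 39.8% of the troponin C pair. In all 3 troponin pairs the slow share was higher in the mutant than in WT at E16.5 and was lower in the mutant at E18.5 than in the mutant at E16.5. At E18.5 the genotypes did not differ in one direction, since the slow share was higher in the mutant for *Tnni1* and lower for *Tnnt1* and *Tnnc1*. *Mybpc1* held 98.4%, 96.7%, 98.2% and 95.03% of its pair, with *Mybpc2* below 1 FPKM in each library, and *Casq2* held 76.9%, 74.4%, 68.7% and 71.8%. Unlike the troponin pairs, both of these shares were lower in the mutant than in WT at E16.5. Both were also lower in the E18.5 than in the E16.5 mutant. Embryonic *Myh3* held 71.3%, 72.5%, 74.9% and 69.3% of its FPKM with perinatal *Myh8*, a narrow range.

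**Figure D5:**
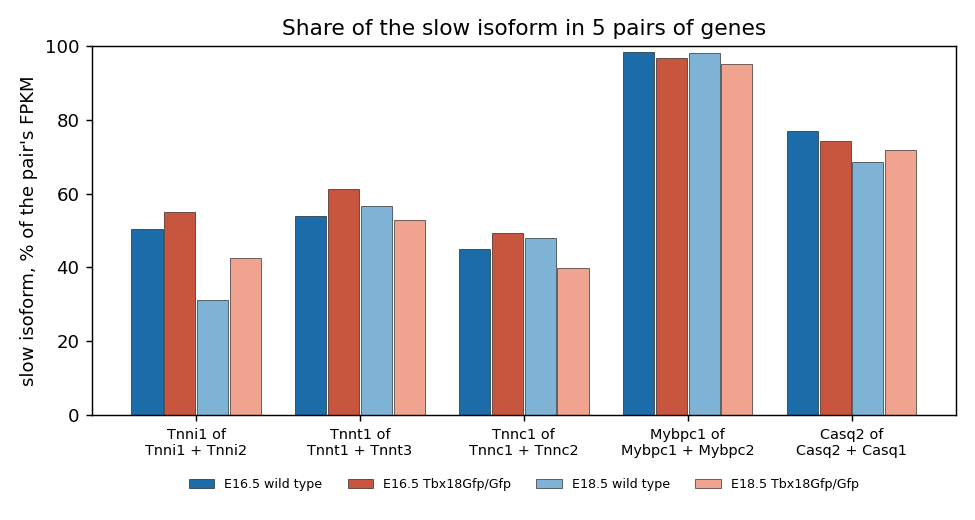
Share of the slow isoform in the summed FPKM of 5 slow and fast gene pairs (percent) in each library, 1 bar per library. For the 3 troponin pairs the E16.5 mutant bar is higher than the E16.5 WT bar and the E18.5 mutant bar is lower than the E16.5 mutant bar. For *Mybpc1* and *Casq2* the E16.5 mutant bar is lower than the E16.5 WT bar.

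Other genes of the same systems, listed by function, gave the following counts at E16.5. For comparison, 1.17% of all genes were at least 2-fold lower and 45.7% of all rows were lower by any amount. Of 27 other sarcomere genes above the filter 14 were at least 2-fold lower and 24 were lower by any amount. The most abundant, the tropomyosin genes *Tpm1* and *Tpm2* and the Z-disc gene *Pdlim3*, which smooth muscle expresses too, had log2 ratios of -0.36, -0.99 and -0.31. Of 20 other excitation, calcium and junction genes 6 were at least 2-fold lower and all 20 lower by any amount, with *Atp2a2*, *Asph* and *Srl* at -0.19, -0.19 and -0.99. All 13 fusion and membrane genes were lower, 10 of them at least 2-fold, with the fusion gene *Tmem8c*, *Apobec2* and caveolin *Cav3* at -1.10, -1.05 and -1.09. Of 10 other metabolic genes 4 were at least 2-fold lower, and *Ldha*, *Pfkm* and *Gys1*, which most tissues express, were at 0.07, -0.16 and -0.16. The 8 myogenic regulators above the filter were all lower, 4 of them at least 2-fold, with a median of -0.85. *Myog*, *Eya1* and *Mef2c* were at -1.22, -0.14 and -0.45. Epithelial markers (*Krt5*, *Upk1b*, *Krt8* the most abundant, at -0.56, -0.50 and 0.00) and neuronal and Schwann cell markers (*Prph*, *Tubb3*, *Th*, at -0.33, -0.40 and 0.24) had medians of -0.32 and -0.26, with 0 of 8 and 0 of 9 at least 2-fold lower. Their summed level was 567, 482, 553 and 712 FPKM for epithelium and 337, 276, 181 and 283 FPKM for neurons and Schwann cells, none of them at 0, and their part in the muscle values was not tested.

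At E18.5 the other sarcomere, excitation, fusion and metabolic lists did not stand as low as the 36 genes. The median log2 ratio was 0.02 for the 25 other sarcomere genes above the filter, with 11 lower and 14 higher, and 0.20 for the 17 excitation, calcium and junction genes, with 5 lower and 12 higher. It was 0.13 for the 13 fusion and membrane genes, with 4 lower and 9 higher, and 0.56 for the 8 metabolic genes, with 1 lower and 7 higher, beside 0.31 for all genes and -0.36 for the 36-gene list. Among all rows above 0 in both libraries 33.9% were lower, near the shares of the excitation and fusion lists. With the trend subtracted the medians were -0.20, -0.07, -0.38 and 0.03, beside -0.86 for the list. The myogenic regulators stood as low as the 36-gene list as deposited, with a median of -0.36 and 6 of 8 lower. With the trend subtracted their median was -0.60.

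Some members share sequence with other genes, so their FPKM depend on how reads were divided. In GENCODE transcripts 32.1% of the 50-base windows of *Myh1* and 21.4% of those of *Myh8* occur in other genes, mainly other myosin heavy chains of the chromosome 11 cluster. For *Myl1* the share was 23.4%, for *Atp2a1* 18.3%, for *Cacna1s* 16.4%, for *Ckm* 11.7% and for *Acta1* 2.22%. *Mylpf*, *Casq2*, *Eno3* and the troponin I and T genes shared none.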

How the data were processed

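Libraries were made with a stranded mRNA kit and sequenced as single-end reads. Per the submitters' processing notes CASAVA 1.8.2, Trimmomatic 0.30, TopHat2 2.1.0 and Cufflinks 2.2.1 were used, with TopHat options at default. The deposited values are FPKM from Cufflinks, 1 column per library, without further scaling by the authors that is stated. The genome build is not given in the sources used here. FPKM normalize for mapped reads and length but not for GC content. Ratios of FPKM were computed without a pseudocount, and genes reaching 1 FPKM in the WT or the mutant library were counted at 2-fold, a filter taken from the study. Length and GC content came from GENCODE M21, and a lowess trend (span 0.3) on both was subtracted as an alternative. Read numbers are estimates from genes at 1 read (tolerance 1%) and cover counting error only. Shares of sequence used windows of 50 bases. The named genes were all 36 members and the 3 most abundant in E16.5 WT of each other list. Besides these, *Tbx18*, *Nkx2-5*, *LOC100503495* and cardiac *Tnni3*, *Ryr2*, *Myh6* and *Myl7* were named. Of these additions all but *Tbx18* were chosen after values were seen. The members and lists were chosen with earlier results of these data known. Steps were tested on simulated data. Python 3.11.15, numpy 2.4.6, pandas 2.3.3 and statsmodels 0.14.6 were used.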

Additional observations from a re-analysis of the deposited data

Results flagged for a closer look

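In 11 of the 36 genes the log2 ratio of *Tbx18*Gfp/Gfp to WT FPKM was below 0 at E16.5 and above 0 at E18.5, in 1 library per group. That share is near the 28.8% of all rows above 0 in the 4 libraries, so the change of sign does not set the list apart. The difference between the stages was not tested. The E18.5 ratio minus the E16.5 ratio was 3.54 for *Acta1*, 3.36 for *Xirp2*, 3.22 for *Ckm*, 2.16 for *Eno3*, 1.70 for *Mylpf*, 1.68 for *Chrng*, 1.48 for *Tnni1*, 1.45 for *Casq2*, 1.28 for *Tnnc2*, 1.26 for *Myh1* and 1.03 for *Casq1*. The *Xirp2* value rests on about 16 reads or fewer in each library, and *Mybpc2*, above 0 at both stages, is not among them. With the length and GC trend subtracted, the E18.5 ratio of *Mylpf*, *Chrng*, *Tnni1*, *Tnnc2*, *Myh1* and *Casq1* was at or below 0.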

How the results depend on the processing

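Of the counts and medians recomputed for the list under the alternatives, 109 stayed within 1.5-fold, without a change of sign for a median, 9 moved further and 2 changed sign. The 109 include counts that stayed at 0. They also include the setting without repeated symbols, which could change nothing as each member is a single row. The medians of -0.86 at E18.5 and -0.25 between the WT stages, with the trend subtracted, are among them too. The median log2 ratio ranged from -1.29 to -0.95 at E16.5, from -0.86 to -0.30 at E18.5, from -0.68 to -0.25 between the WT stages, and from -0.08 to 0.18 between the mutant stages. The last changed sign to 0.0089 when centred on the median of all genes and to 0.18 with a minimum of 5 FPKM. The 25 genes at least 2-fold lower at E16.5 became 15 with a pseudocount of 1, which shrinks low values. The 5 at E18.5 became 10 with equal library sums, 8 when centred, 8 with upper quartile scaling, 11 with the trend subtracted, 3 with a pseudocount of 1 and 2 with at least 5 FPKM, where 21 genes were counted. The 3 at least 2-fold higher at E18.5 became 5 without the FPKM filter, which adds *Mybpc2* and *Xirp2*. The 9 lower between the WT stages became 4 with the trend subtracted, as the share of all genes went from 16.8% to 3.28%. Beyond the pseudocount, the filter and the larger set of genes, the cause was not tested. The 20 isoform ratio changes kept their sign and stayed within 1.5-fold with the trend subtracted. No paired analysis was possible because each group held 1 library. Pooling and a single library per group limit every value, and few reads also limit *Xirp2* and *Mybpc2*.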
